A study of Mus musculus with 4 samples.

Results

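The 10 genes described here are Zeb1, Zeb2, Snai1, Snai2, Twist1, Vim, Cdh2, Esrp1, Esrp2 and Ovol1. They were chosen by symbol as factors and products of the epithelial-mesenchymal transition (EMT) and the regulators that oppose it. All 10 had a row among the 24043 rows of the deposited expression table. Each was read in 4 RNA-seq libraries of sorted mouse mammary tumor cells, 2 labelled Lsd1 knockout and 2 labelled wild-type. The tumors arose in MMTV-PyMT female mice, in which a mouse mammary tumor virus promoter drives the polyoma middle T oncogene in mammary epithelium. All mice carried a Rosa26-Stop-YFP (R26Y) reporter, and all received the adenovirus Ad-K8-Cre by intraductal injection, which supplies Cre recombinase from the Krt8 promoter of luminal cells. By the design text, the mice of the knockout group had the conditional alleles Lsd1L/L and those of the wild-type group Lsd1+/+, although the tissue label gives Lsd1+/+ for all 4 samples. YFP+ cells were sorted 2 to 3 months after injection, and the age of the mice is not given in the labels. LSD1, encoded by Kdm1a, is a histone demethylase that works with the CoREST corepressors. The design asks what changes in the transcripts of tumor cells when it is lost.

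In the EMT, epithelial cells lose junctions and polarity and gain motility. Zeb, Snail and Twist proteins are transcription factors that promote the transition. Zeb and Snail proteins bind E-box sequences and repress epithelial genes such as Cdh1, and Snail proteins recruit LSD1 through their N-terminal SNAG domain. Vimentin, an intermediate filament protein, and N-cadherin, encoded by Cdh2, are mesenchymal products. Esrp1 and Esrp2 are RNA-binding proteins that maintain epithelial splicing, and Ovol1 is a zinc finger factor that opposes Zeb genes. Several of the mesenchymal genes are also transcribed in blood, stromal or endothelial cells, so their level in a sorted population need not come from tumor cells alone.

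Kdm1a itself was at 20.2 and 22.8 FPKM in knockout-labelled libraries and at 52.5 and 22.9 FPKM in wild-type (limma, adjusted p = 0.34). FPKM values are divided by transcript length and by the library's total. Because 1 wild-type library had the same level, and because both samples titled knockout carry Lsd1+/+ in their tissue label, these are called knockout-labelled libraries throughout. The labels do not tie each library to an animal of its own, and p-values therefore cover only the variation among these 4, which may be technical. That variation was unequal: the Pearson correlation across 11138 genes was 0.98 within the pair labelled knockout and 0.85 within the wild-type pair. Lymphocyte markers summed to 1802 and 1701 FPKM in knockout-labelled libraries and to 14.8 and 61.9 FPKM in wild-type. Macrophage markers summed to 1086 and 1011 FPKM in knockout-labelled libraries and to 404 and 13690 FPKM in wild-type. The knockout-labelled pair thus stood apart in lymphocyte markers, and the second wild-type library in macrophage markers. All 9 luminal epithelial markers were detected in every library, and in their sum the first wild-type library stood apart. That sum was 756 and 776 FPKM in knockout-labelled libraries and 12741 and 2810 FPKM in wild-type. Depth was roughly 16600000 and 17900000 reads in knockout-labelled libraries and 18400000 and 15200000 in wild-type, as estimated from the steps between low values. In bulk libraries such as these, fewer cells of a type and less RNA per cell cannot be told apart.

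Zeb1 was the one member that rose. Its level was 6.99 and 6.49 FPKM in knockout-labelled libraries, against 0.0202 and 0.822 FPKM in wild-type. Both knockout-labelled libraries were above both wild-type libraries, and the wild-type values lay far apart. The mean was 6.74 ± 0.354 FPKM in knockout-labelled libraries and 0.421 ± 0.567 FPKM in wild-type (SD, n = 2 each), a ratio of means of 16.02. On the log2(FPKM + 1) scale, which understates differences of genes near 1 FPKM, Zeb1 rose by 2.51 (SE 0.36, 95% interval 1.49 to 3.52; limma over 11138 genes, Benjamini-Hochberg adjusted p = 0.034). Across all tested genes, 16.5% were called at an adjusted p under 0.05, with 9.51% higher in knockout-labelled libraries, so a call is not rare in this comparison. The lowest Zeb1 value corresponds to roughly 2 reads, and the other wild-type value to roughly 73. The call ended in 5 of 13 alternative settings, among them a pseudocount of 0.1 (adjusted p = 0.077), no filter on low values (adjusted p = 0.15), and leaving out the first (adjusted p = 0.38) or second (adjusted p = 0.37) knockout-labelled library, within a range of 2.9e-07 to 0.38 over the 13 (limma). Without the second wild-type library the difference was 2.92, and without the first it was 2.09. The lymphocyte marker sums had the same order over the 4 libraries as Zeb1, which T cells also transcribe, and the part of lymphocyte RNA in the Zeb1 difference was not tested.

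Zeb2, the paralog of Zeb1, had no such pattern. It was at 1.23 and 1.18 FPKM in knockout-labelled libraries and at 0.139 and 3.21 FPKM in wild-type. The wild-type libraries lay on either side of the pair labelled knockout, so the groups overlapped. The fitted difference was 0.01 on the log2(FPKM + 1) scale, with a 95% interval of -1.94 to 1.97 (limma, adjusted p = 0.99). The interval holds changes in either direction, and leaving out 1 wild-type library turned the sign: the difference was -0.93 without the first and 0.96 without the second. Within each library, Zeb1 stood at 5.66 and 5.49 times Zeb2 in knockout-labelled libraries, against 0.146 and 0.256 times in wild-type. The more abundant Zeb gene was thus Zeb1 in both knockout-labelled libraries and Zeb2 in both wild-type libraries. An exact permutation test of 2 against 2 libraries cannot give a two-sided p below 0.333, so this ratio was not tested. The antisense gene Zeb2os, which overlaps Zeb2 in the GENCODE M21 annotation, was at 0.577 and 0.284 FPKM in knockout-labelled libraries, and at 5.28 FPKM in the second wild-type library and 0 in the first. Whether strand was used in counting is not given in the sources used here, so reads of the pair cannot be told apart.

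**Figure D1:**
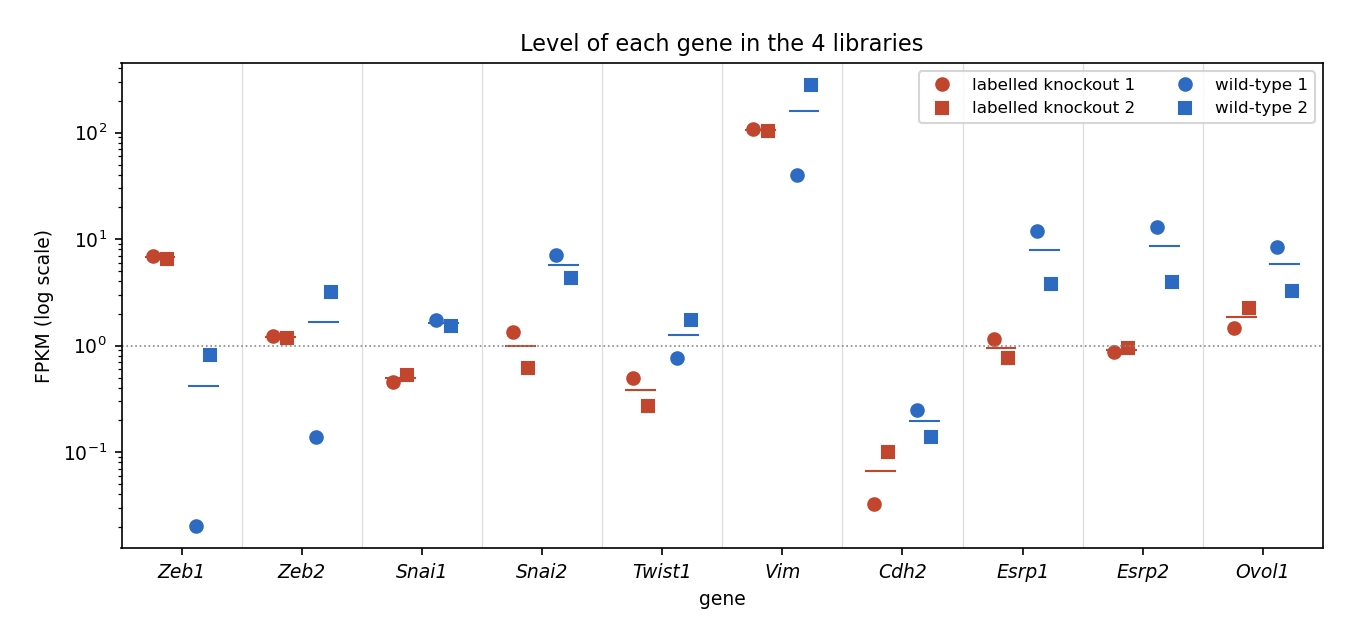
Level of each of the 10 genes in FPKM, on a log axis, with 1 point per library and a line at the mean of each group; red points are the knockout-labelled libraries and blue points the wild-type libraries, and the dotted line marks 1 FPKM. Zeb1 is the single gene whose red points lie above both blue points, while Zeb2 and Vim have blue points on either side. The other 7 genes have both red points below both blue points, and of these Twist1 and Cdh2 were too low to be tested. Groups without overlap were common, at 71.4% of all tested genes, 39.3% higher and 32.1% lower in knockout-labelled libraries.

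Of the Snail genes Snai1 fell, Snai2 was lower without passing the test, and Snai3, which is no member, was higher without passing, at 3.11 and 3.22 FPKM in knockout-labelled libraries and at 1.42 and 0.231 FPKM in wild-type (limma, adjusted p = 0.10). Snai1, a zinc finger repressor of Cdh1, was at 0.454 and 0.534 FPKM in knockout-labelled libraries and at 1.75 and 1.52 FPKM in wild-type. The groups did not overlap, and both pairs were tight. Snai1 fell by 0.82 on the log2(FPKM + 1) scale (SE 0.16, 95% interval -1.28 to -0.36; limma, adjusted p = 0.049), where 6.99% of all tested genes were called lower. Its mean was 0.494 ± 0.0563 FPKM in knockout-labelled libraries and 1.64 ± 0.164 FPKM in wild-type (SD, n = 2 each), a level 3.31 times higher in wild-type. Those values correspond to roughly 12 and 15 reads in knockout-labelled libraries and 52 and 37 in wild-type. The call sat at the threshold, and it ended under 9 of 12 alternative settings, with adjusted p-values of 0.0017 to 0.45 over the 12 (limma). The difference was -0.88 without the second wild-type library.

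Among the 4 members for which a promoter window was found, only that of Snai1 holds the E-box that Snail and Zeb proteins bind. The window is shown because Snai1 fell in knockout-labelled libraries, beside the window of Vim, whose level did not separate the groups. Both are RefSeq sequences of build GRCm38.p6, from 250 bases before to 50 bases after the gene's start, on the plus strand, at chr2:167537945-167538244 for Snai1 and chr2:13574061-13574360 for Vim. Capitals mark CACCTG or its reverse complement CAGGTG, which was searched on both strands.
Snai1: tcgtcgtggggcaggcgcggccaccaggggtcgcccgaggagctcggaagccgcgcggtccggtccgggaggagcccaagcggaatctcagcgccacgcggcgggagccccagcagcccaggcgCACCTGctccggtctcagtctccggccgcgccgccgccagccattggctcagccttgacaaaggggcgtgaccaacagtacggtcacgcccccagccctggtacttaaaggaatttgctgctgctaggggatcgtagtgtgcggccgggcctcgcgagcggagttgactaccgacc
Vim: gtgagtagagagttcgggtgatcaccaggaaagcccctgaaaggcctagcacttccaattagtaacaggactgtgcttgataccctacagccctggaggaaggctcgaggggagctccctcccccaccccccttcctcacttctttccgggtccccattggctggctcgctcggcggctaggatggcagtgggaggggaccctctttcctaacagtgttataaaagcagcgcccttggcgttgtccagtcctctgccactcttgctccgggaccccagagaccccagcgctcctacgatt
The Snai1 window had 1 match, starting at position -126 from the start of the gene. The Vim window had 0 matches. Of 32851 such windows of mouse genes 20.2% held at least 1 match, so the match in Snai1 is a common feature and describes letters only. Windows were found for 4 of the 10 genes, and those of Zeb2 and Twist1 also had 0 matches.

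Snai2, the Slug gene, which is also active in basal mammary cells, was at 1.34 and 0.623 FPKM in knockout-labelled libraries and at 7.05 and 4.29 FPKM in wild-type. Both knockout-labelled libraries were lower than both wild-type libraries, with a mean 5.77 times higher in wild-type. The difference of -1.74 on the log2(FPKM + 1) scale (SE 0.35, 95% interval -2.74 to -0.75) fell just short of the threshold (limma, adjusted p = 0.051). It was -1.44 when the first wild-type library was left out and -2.05 when the second was. The calls of Snai1 and Snai2 swapped in a limma fit without the trended and robust prior (adjusted p = 0.061 for Snai1 and 0.048 for Snai2). Basal epithelial markers summed to 75.03 and 90.9 FPKM in knockout-labelled libraries and to 502 and 133 FPKM in wild-type. Of 6 tested basal markers 4 were lower without overlap, against 32.1% of all tested genes, and for the others the groups overlapped. The part of basal cell RNA in the Snai2 difference was not tested. Within each library Snai1 stood below Snai2, at 0.338 and 0.857 times its level in knockout-labelled libraries and at 0.248 and 0.354 times in wild-type.

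Twist1, a basic helix-loop-helix factor, and Cdh2 were too low to be tested, since neither reached 1 FPKM in 2 libraries. Twist1 was at 0.499 and 0.272 FPKM in knockout-labelled libraries and at 0.769 and 1.73 FPKM in wild-type. Cdh2 was at 0.0329 and 0.1003 FPKM in knockout-labelled libraries and at 0.251 and 0.139 FPKM in wild-type. Both genes had their 2 lowest values in knockout-labelled libraries. The Cdh2 values correspond to roughly 3 and 9 reads in knockout-labelled libraries and to 22 and 10 in wild-type. With no filter, neither passed (limma, adjusted p = 0.41 for Twist1 and 0.52 for Cdh2). Cdh2 was the lowest of the 10 genes in knockout-labelled libraries and in the second wild-type library, and in the first wild-type library Zeb1 and Zeb2 were lower still.

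Vim was by far the most abundant of the 10 genes in every library. It was at 107.6 and 103.7 FPKM in knockout-labelled libraries and at 39.8 and 279.7 FPKM in wild-type. The wild-type values were 7.02-fold apart and lay on either side of the pair labelled knockout. The fitted difference was -0.01 on the log2(FPKM + 1) scale, with a 95% interval of -2.84 to 2.83 (limma, adjusted p = 0.997). It was -1.40 when the first wild-type library was left out and 1.39 when the second was. Vim and Zeb2 were both highest in the second wild-type library, where the macrophage, fibroblast and endothelial marker sums were also highest. Fibroblast markers summed to 210.8 and 209.3 FPKM in knockout-labelled libraries and to 253 and 624 FPKM in wild-type, and endothelial markers to 21.9 and 21.2 FPKM in knockout-labelled libraries and 30.2 and 172.8 FPKM in wild-type. The part of these cells in the levels of Vim and Zeb2 was not tested. Schwann cell markers summed to less than 6 FPKM in each library.

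**Figure D2:**
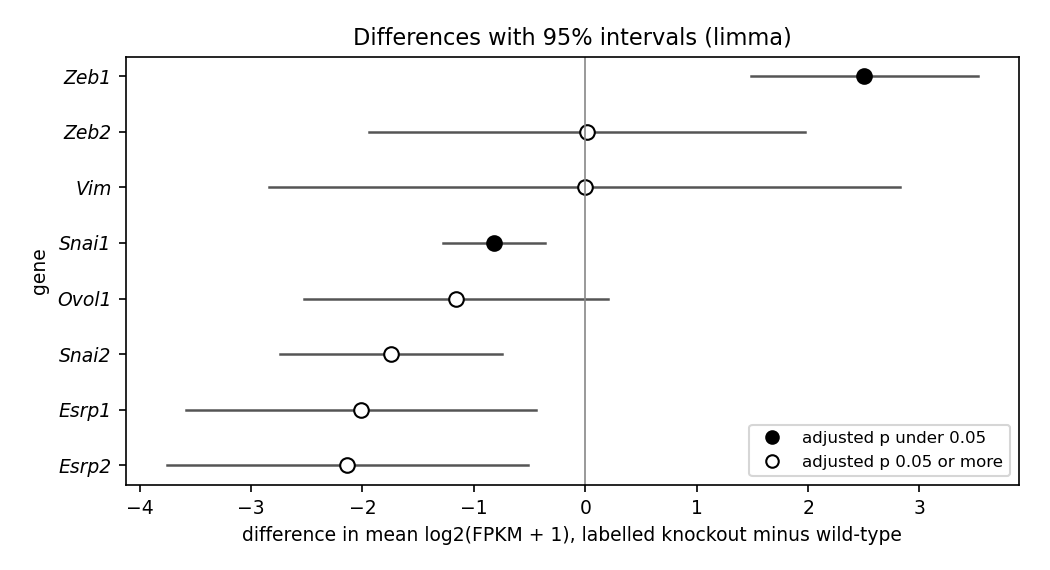
Difference in mean log2(FPKM + 1), knockout-labelled libraries minus wild-type, with its 95% interval, for the 8 genes that passed the filter on low values; filled points had an adjusted p under 0.05. Zeb1 lies at 2.51 and Snai1 at -0.82, both filled, while the intervals of Zeb2 and Vim reach about as far above 0 as below it.

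The epithelial splicing regulators Esrp1 and Esrp2 were lower in both knockout-labelled libraries than in both wild-type libraries, but neither passed the test. Esrp1 was at 1.15 and 0.762 FPKM in knockout-labelled libraries and at 11.9 and 3.81 FPKM in wild-type. Esrp2 was at 0.864 and 0.959 FPKM in knockout-labelled libraries and at 13.1 and 3.99 FPKM in wild-type. The paralogs thus stood close to each other in each library, with Esrp1 at 1.34 and 0.795 times Esrp2 in knockout-labelled libraries and at 0.905 and 0.956 times in wild-type. Esrp1 differed by -2.02 on the log2(FPKM + 1) scale (SE 0.56, 95% interval -3.59 to -0.44; limma, adjusted p = 0.083). Esrp2 differed by -2.14 (SE 0.58, 95% interval -3.76 to -0.51; limma, adjusted p = 0.079). The mean was 8.19 times higher in wild-type for Esrp1 and 9.40 times higher for Esrp2, and the first wild-type library had 3.11 and 3.29 times the level of the second. With the first left out the difference was -1.31 for Esrp1 and -1.39 for Esrp2, and with the second left out it was -2.72 for Esrp1 and -2.89 for Esrp2. Esrp2 overlaps Nfatc3 and 1810019D21Rik on the opposite strand in GENCODE M21. Nfatc3 was at 11.4 and 11.02 FPKM in knockout-labelled libraries and at 1.68 and 1.80 FPKM in wild-type. In the direction of Esrp2, 1810019D21Rik was at 0.499 and 0.458 FPKM in knockout-labelled libraries and at 3.41 and 1.89 FPKM in wild-type. Whether Esrp2 shared reads with either gene was not tested.

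Ovol1 followed the Esrp genes in direction with a smaller difference. It was at 1.46 and 2.24 FPKM in knockout-labelled libraries and at 8.43 and 3.23 FPKM in wild-type. The groups did not overlap, although the second wild-type library was near the second knockout-labelled library. The difference of -1.16 on the log2(FPKM + 1) scale (SE 0.49, 95% interval -2.52 to 0.20) was not called (limma, adjusted p = 0.17). It was -0.58 when the first wild-type library was left out and -1.74 when the second was.

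Markers of the luminal epithelium were lower in the same libraries as these 3 genes. The 9 luminal markers summed to 756 and 776 FPKM in knockout-labelled libraries and to 12741 and 2810 FPKM in wild-type. Per 1000 FPKM of luminal markers, Esrp1 stood at 1.53 and 0.982 FPKM in knockout-labelled libraries and at 0.932 and 1.36 FPKM in wild-type. Esrp2 stood at 1.14 and 1.24 FPKM in knockout-labelled libraries and at 1.03 and 1.42 FPKM in wild-type on the same measure. The groups overlapped for both Esrp genes on this measure, which was added after the data were seen. Ovol1 stood at 1.93 and 2.89 FPKM per 1000 FPKM of luminal markers in knockout-labelled libraries and at 0.661 and 1.15 FPKM in wild-type, and here the knockout-labelled libraries were both higher. On the log2(FPKM + 1) scale, with the mean of the luminal markers taken off, the difference was 0.93 for Esrp1, 0.81 for Esrp2 and 1.79 for Ovol1, and the groups did not overlap for any of the 3. On that scale Esrp1 stood at -4.36 and -4.73 in knockout-labelled libraries and at -5.84 and -5.11 in wild-type, and Esrp2 at -4.57 and -4.57 in knockout-labelled libraries and at -5.70 and -5.06 in wild-type. Without the first wild-type library the difference was 0.57 for Esrp1, 0.49 for Esrp2 and 1.29 for Ovol1. That measure depends on the pseudocount, since the Esrp genes lie near 1 FPKM and the markers far above it: with a pseudocount of 0.1 it was 0.27 for Esrp1 and 0.12 for Esrp2. With 2 libraries a group these relative levels were not tested, and the part of the epithelial share of the RNA in the lower Esrp levels was not tested.

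**Figure D3:**
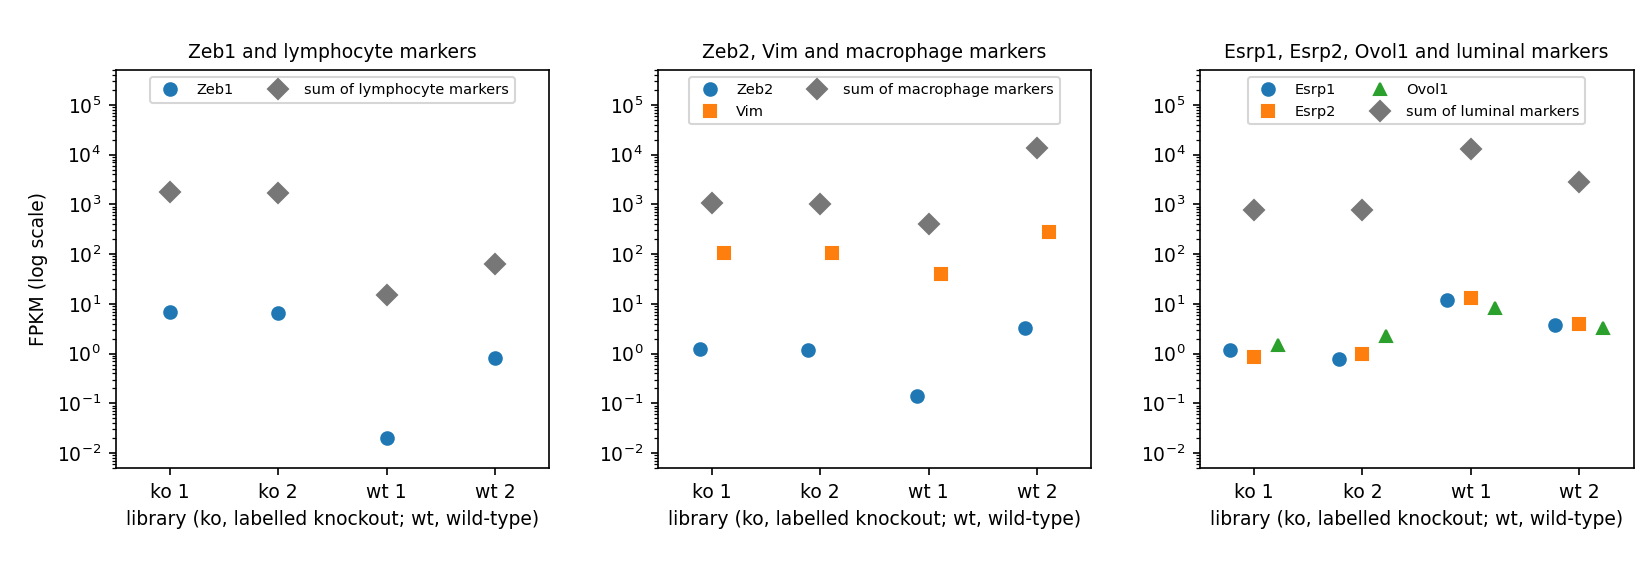
Level in FPKM, on a log axis, of Zeb1, of Zeb2 and Vim, and of Esrp1, Esrp2 and Ovol1 in the 4 libraries (points), each beside the summed FPKM of a list of cell type markers (grey diamonds). Zeb1 has the order of the lymphocyte sum, Zeb2 and Vim are lowest in the first and highest in the second wild-type library as is the macrophage sum, and the Esrp genes are highest in the first wild-type library as is the luminal sum.

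Among all tested genes 16.5% were called, 9.51% higher and 6.99% lower in knockout-labelled libraries. Of the 10 genes 8 were tested, 1 rose, 1 fell and 6 did not pass. The filter bears on this count: Zeb1 reached 1 FPKM only in knockout-labelled libraries, and Snai1 and Esrp2 only in wild-type, so these could not have been tested had their groups been alike at the lower level. The groups did not overlap for 6 of the 8, against 71.4% of all tested genes. Of the 6, Zeb1 was higher and 5 were lower in knockout-labelled libraries, where 39.3% of all tested genes were higher and 32.1% lower without overlap. The median difference of the 8 was -0.99, and that of all tested genes was 0.08. These shares describe the list and its background and give no support to either direction.

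**Figure D4:**
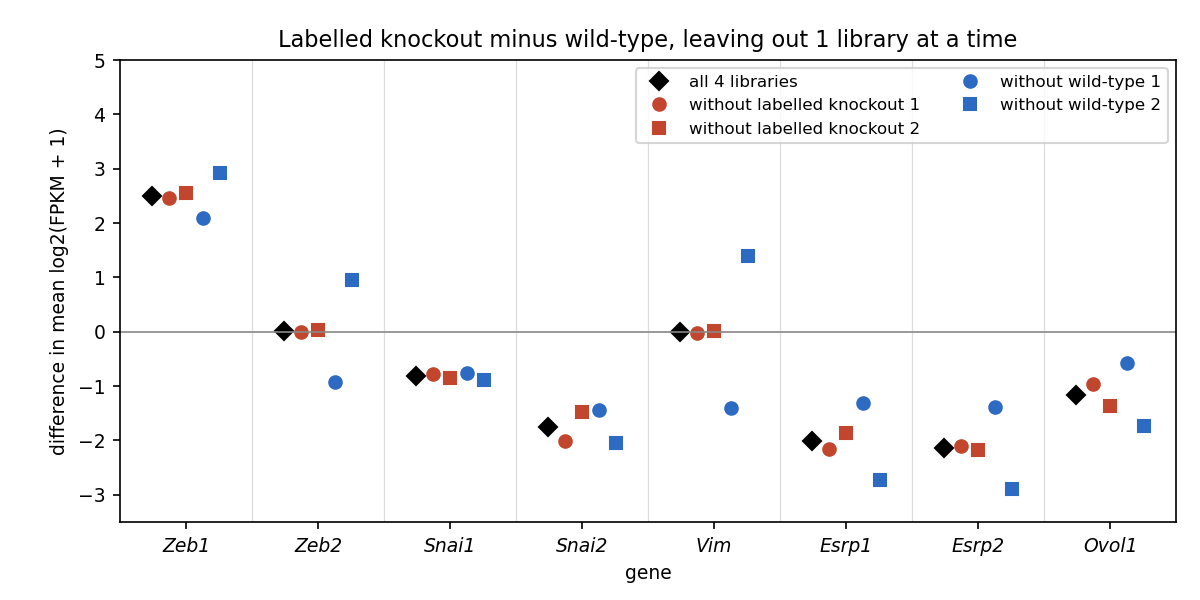
Difference in mean log2(FPKM + 1), knockout-labelled libraries minus wild-type, for the 8 tested genes with all 4 libraries (black diamonds) and with 1 library left out at a time. The sign of Zeb2 and Vim turns with the wild-type library left out, from -1.40 to 1.39 for Vim, while Zeb1 stays between 2.09 and 2.92 and Snai1 between -0.88 and -0.75.

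The genes nearest in pattern were sought by the distance between log2(FPKM + 1) values centred over the 4 libraries, among 10464 other tested genes. For Zeb1 these were Ugcg, a glucosylceramide synthase, at a distance of 0.055, and Zcchc11 at 0.088. For Zeb2 they were the cytokine subunit gene Ebi3 (0.098) and Tnip3 (0.10), and for Vim they were Rps4l (0.057) and Pecam1, an endothelial and leukocyte adhesion molecule (0.095). Snai1 was nearest to Psme4 (0.028) and Ranbp17 (0.047), and Snai2 to Slc35a1 (0.089) and Igfals (0.15). Esrp1 was nearest to Stard10 (0.13) and Rsad2 (0.17), Esrp2 to Arhgef19 (0.014) and the stratifin gene Sfn (0.062), and Ovol1 to Map3k6 (0.085) and Pcbp4 (0.093). With 4 libraries a small distance is a description of these values only.

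Other genes of the programme were read from 8 lists of 95 genes in all, of which 68 were tested. In these lists 5 genes rose, 3 fell and 60 did not pass, so 11.8% were called against 16.5% of all tested genes. Of all tested genes 46.4% had a negative difference, and 39.3% were higher in knockout-labelled libraries without overlap. None of 6 tested EMT transcription factors was called, with 4 negative and 2 positive differences, those of Snai3 (1.27) and Tcf3 (0.44), each higher without overlap. The forkhead gene Foxc1 was at 0.927 and 0.758 FPKM in knockout-labelled libraries and at 12.2 and 4.98 FPKM in wild-type (limma, adjusted p = 0.051), and Sox4 at 8.86 and 10.2 FPKM in knockout-labelled libraries against 70.4 and 31.7 FPKM in wild-type (limma, adjusted p = 0.051). Of 9 tested mesenchymal products only Cald1, the actin-binding protein caldesmon, was called, with 2.60 and 2.31 FPKM in knockout-labelled libraries and 20.8 and 10.8 FPKM in wild-type (difference -2.22, SE 0.38; limma, adjusted p = 0.040). The 9 products had a median difference of -0.54, with 7 negative and 2 positive differences. S100a4 had the largest difference in size, and it was positive at 3.36 without passing (limma, adjusted p = 0.19). It was at 159 and 152.7 FPKM in knockout-labelled libraries and at 2.45 and 66.1 FPKM in wild-type, higher without overlap.

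In the epithelial lists of factors and of Zeb and Snail targets no single gene was called. Of 9 tested epithelial transcription factors 8 had a negative difference, against 46.4% of all tested genes, and the median was -1.34. The exception, Gata3, a luminal factor, differed by 0.12 (limma, adjusted p = 0.91). It was at 11.3 and 9.45 FPKM in knockout-labelled libraries and at 18.8 and 4.48 FPKM in wild-type, so the groups overlapped. The part of lymphocyte RNA in the Gata3 level was not tested. The luminal progenitor factor Elf5 was at 0.895 and 0.990 FPKM in knockout-labelled libraries and at 14.7 and 5.65 FPKM in wild-type (limma, adjusted p = 0.051), and Ehf differed by -2.28 (SE 0.48; limma, adjusted p = 0.054). Among 15 tested epithelial genes known as targets of Zeb or Snail repression, none was called and 14 had a negative difference, with a median of -2.06. The exception, Inadl, encoding a polarity scaffold, was at 8.89 and 8.97 FPKM in knockout-labelled libraries and at 4.45 and 1.44 FPKM in wild-type (limma, adjusted p = 0.11). Rab25, a small GTPase of epithelial recycling, was at 5.14 and 4.59 FPKM in knockout-labelled libraries and at 47.0 and 16.4 FPKM in wild-type (limma, adjusted p = 0.066), and Cldn4 differed by -3.43 (SE 0.72; limma, adjusted p = 0.053). The luminal markers, 4 of which stand in this list too (Cdh1, Epcam, Cldn4 and Cldn7), were lower in the same libraries, and of those 9 markers Cldn3, a tight junction claudin, was called (difference -3.30, SE 0.51; limma, adjusted p = 0.036). Rows of 6 microRNA genes that restrain Zeb genes (Mir200a, Mir200b, Mir200c, Mir141, Mir429 and Mir205) were at 0 in all 4 libraries, which were made by an mRNA kit.

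Splicing regulators other than the Esrp genes moved in both directions. Of 12 tested, Rbm47, an epithelial RNA-binding protein, fell, with 0.883 and 0.881 FPKM in knockout-labelled libraries and 4.67 and 7.55 FPKM in wild-type (difference -1.89, SE 0.30; limma, adjusted p = 0.036). Rbm47 reached 1 FPKM only in wild-type, so it could not have been tested had both groups been at the lower level. The muscleblind gene Mbnl1 rose, with 66.7 and 64.7 FPKM in knockout-labelled libraries and 5.53 and 16.1 FPKM in wild-type (difference 2.66, SE 0.53; limma, adjusted p = 0.049). Ptbp1, the polypyrimidine tract binding protein, rose by 0.95 (SE 0.17; limma, adjusted p = 0.042), and Khdrbs1, the Sam68 gene, by 1.09 (SE 0.20; limma, adjusted p = 0.044). The other 8 did not pass. Mbnl1, Ptbp1 and Khdrbs1 had their higher values where lymphocyte markers were high, and the part of those cells was not tested.

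Gene-level values hold no exon counts, so the splicing that Esrp proteins control cannot be read from them. Among 12 genes with Esrp-dependent exons, 9 were tested, 1 rose and 1 fell. Ctnnd1, encoding p120-catenin, was at 0.793 and 1.001 FPKM in knockout-labelled libraries and at 12.96 and 5.36 FPKM in wild-type (difference -2.31, SE 0.46; limma, adjusted p = 0.049). Ralgps2 was at 8.56 and 9.36 FPKM in knockout-labelled libraries and at 0.135 and 1.41 FPKM in wild-type (difference 2.59, SE 0.44; limma, adjusted p = 0.040). Cd44, a classic Esrp target, was at 17.5 and 18.2 FPKM in knockout-labelled libraries and at 19.7 and 22.7 FPKM in wild-type, and was not called (limma, adjusted p = 0.42). Among 8 tested genes of LSD1 and the partners of SNAG-domain factors, Gfi1, a SNAG-domain repressor of blood cells, rose. It was at 3.71 and 3.98 FPKM in knockout-labelled libraries and at 0.0618 FPKM and 0 in wild-type (difference 2.23, SE 0.17; limma, adjusted p = 0.024). Gfi1 reached 1 FPKM only in knockout-labelled libraries, so the filter bears on this call as well. It bears likewise on Foxc1 and Elf5, which reached 1 FPKM only in wild-type. No gene of the whole table passed without either knockout-labelled library, so every call named here ended there.

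**Figure D5:**
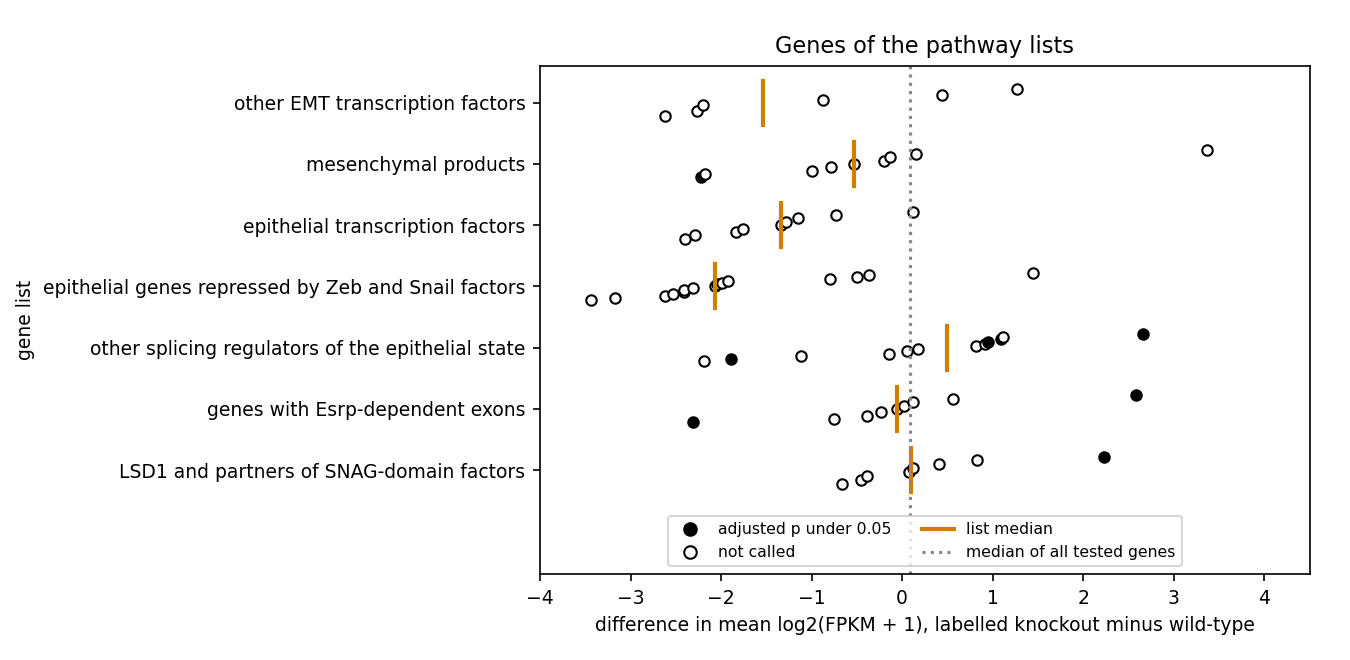
Difference in mean log2(FPKM + 1), knockout-labelled libraries minus wild-type, of each tested gene in 7 lists (points; filled, adjusted p under 0.05), with the median of each list in orange and the median of all tested genes as a dotted line. The epithelial lists lie mostly left of the dotted line, with medians of -1.34 and -2.06, and the splicing regulators lie on both sides.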

How the data were processed

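RNA was measured in 4 libraries of sorted mammary tumor cells, made with a low-input Clontech SMARTer kit, per the labels' protocols. The submitters' processing notes name the build mm9. Which aligner, counting tool and annotation made the table is not given in the sources used here, and no read totals come with it. Values that the authors deposited are FPKM, a unit read from the values themselves, since the header names none. From the whole-number steps of low values the depth was put at roughly 15200000 to 18400000 reads per library. This is an estimate from 58 genes of 1 transcript in GENCODE M21, with quartiles of 10000000 and 22700000 for the second knockout-labelled library. Read numbers given for members are rough and take the longest transcript.

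The fit was limma 3.58.1 (R 4.3.3) over every gene that reached 1 FPKM in 2 or more libraries, on log2(FPKM + 1). The prior was trended and robust, the model held genotype alone, and p-values were adjusted by Benjamini-Hochberg. The 92 spike-in rows, all at 0, were left out. Marker sums cover 10 lists, and 2 symbols were matched by older names (Qk for Qki, Emr1 for Adgre1). Neutrophil markers summed to 1160 and 1238 FPKM in knockout-labelled libraries and to 572 and 614 FPKM in wild-type. Of these 6 markers 5 were higher without overlap in knockout-labelled libraries, against 39.3% of all tested genes. The other, Ltf, was lower, at 42.3 and 37.3 FPKM there and at 313 and 76.4 FPKM in wild-type. Pericyte markers summed to 5.08 and 7.24 FPKM in knockout-labelled libraries and 4.27 and 9.36 FPKM in wild-type, and adipocyte markers to no more than 1.35 FPKM. The members and lists were chosen with earlier results of these data known. Named are the members, Kdm1a, in each list the genes called (at most 4) or else the 2 of lowest p, and, for each member whose own mean is at least 1 FPKM, the 2 tested genes nearest to it in pattern. Zeb2os, Nfatc3, 1810019D21Rik, Cd44, Snai3, Tcf3, S100a4, Gata3, Inadl, Cldn3 and Ltf fall outside this rule and were chosen after their values were seen. The level per 1000 FPKM of luminal markers was also added after the data were seen.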

Additional observations from a re-analysis of the deposited data

How the results depend on the processing

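The count of genes called over the table was 1837, and it was 501 with the replicate block and 1 with no filter on low values (4462 at an unadjusted p under 0.05). The count among the members was 2, and it was 0 with a pseudocount of 0.1, with no filter or with the replicate block. It was 1 with a pseudocount of 0.5, a filter at 5 FPKM, rescaling to TPM or quantile normalization. The count over the pathway lists was 8, and it was 0 with no filter, 4 after rescaling to TPM and 2 with the replicate block. Leaving out 1 library moved the counts between 0 and 7912 over the table, between 0 and 8 among the members and between 0 and 56 over the lists. The counts of 0 arose without a knockout-labelled library (1385 and 1346 genes over the table at an unadjusted p under 0.05, without the first and the second), and the highest without a wild-type library, where the lone library is assumed to vary like the other group. Kdm1a changed by -1.25 to -0.087 over the 4 libraries left out and was called at -1.25 without the second wild-type library.

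Zeb1 was higher in 13 of 13 settings and called in 8 of them, and Snai1 was lower in 12 of 12 and called in 3. The sign of Zeb2 turned with median centring (-0.081) and quantile normalization (-0.13), and its range with 1 library left out was -0.93 to 0.96. The sign of Vim turned with a pseudocount of 0.1 (0.00063), rescaling to TPM (0.079) and quantile normalization (0.017), with a range of -1.40 to 1.39. Relative to the luminal markers, Esrp1 moved to 0.27 with a pseudocount of 0.1 and 0.12 as log2 of the level per 1000 FPKM of markers, and Esrp2 to 0.12 and -0.026, or to 0.41 after rescaling to TPM. The replicate numbers are not said to pair libraries: deviations of same-numbered libraries had a correlation of -0.06 across genes, and with 2 pairs the block result (Zeb1 adjusted p = 0.051) says nothing of a weaker effect.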
